A study of Mus musculus with 20 samples.

Results

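The 39 interferon-stimulated genes examined here are genes whose transcription rises when a cell receives an interferon. They were taken by gene symbol from a table of 48440 genes, and 39 of 39 were found. They fall into 17 effectors induced mainly by type I interferons, 2 sensors of viral RNA, 5 transcription factors and signalling partners, 9 GTPases induced mainly by interferon gamma, 3 genes of antigen processing and 3 chemokines that bind the receptor CXCR3. RNA-seq covered 2 tissues, gonadal fat and liver, of C57BL/6 mice that were wild-type (WT) or deficient in PKCε in cells that are not named. PKCε is the epsilon isoform of protein kinase C and product of the gene Prkce. The deficient mice are labelled AdEpsKO and called KO here. All 4 groups had eaten a high-fat diet for 1 week and were fasted for 6 h before tissues were taken, so the WT mice carry the diet too. There were 5 libraries per tissue and genotype. What AdEpsKO stands for is not stated, so the cells that lack PKCε cannot be named, and sex and age are not given either.

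Interferons act through receptors coupled to Janus kinases. Type I interferons (the alpha and beta families) lead to a complex with Stat2 and Irf9 that binds the interferon-stimulated response element (ISRE), while interferon gamma acts through the gamma-activated site (GAS). The induced effectors block viral entry, RNA and protein synthesis, the immunity-related and guanylate-binding GTPases act on the vacuoles of intracellular pathogens, and the immunoproteasome and peptide transporter feed MHC class I. In adipose tissue and liver these genes are expressed by parenchymal cells as well as by macrophages and other leukocytes, and in bulk RNA fewer cells of a type and less RNA per cell cannot be told apart.

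Libraries held between 12880933 and 20784145 expected counts. Prkce was measured at 37.2, 44.6, 25.8, 48.3 and 26.5 CPM (counts relative to library size, with sizes scaled by TMM over all 20 libraries) in the 5 WT fat libraries and at 24.9, 25.7, 16.1, 25.3 and 20.7 CPM in the KO ones. Every KO fat library was below every WT one (exact two-sided permutation p = 0.007937, the smallest that 252 assignments allow), although the transcript did not pass edgeR's quasi-likelihood test after Benjamini-Hochberg adjustment (adjusted p = 0.687). In liver the Prkce levels overlapped, with 14.7 to 27.4 CPM in WT and 12.0 to 19.98 CPM in KO (exact permutation p = 0.1349). Adipocyte markers in fat and hepatocyte markers in liver were all detected. Transcripts foreign to the tissue were above 5 times the median of the other libraries in fat libraries WT 2, WT 5 and KO 2 and in liver libraries WT 2 and WT 4. Counts over the members are given with and without these libraries.

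Promoter sequence was read from RefSeq (GRCm38.p6) for 30 of the 39 members, in windows of 250 bases before to 50 bases after the annotated start. The ISRE was searched as GAAA, any 2 bases and another GAAA, on both strands (on the other strand, TTTC, any 2 bases and another TTTC). The GAS was searched as TTCNNNGAA, which reads the same on both strands. ISRE letters lay in 17 of the 30 promoters (56.7%), against 3.99% of 27025 genes in the same table. GAS letters lay in 10 of 30 (33.3%), against 9.55% of those genes. All 7 matched GTPase promoters held ISRE letters, and 4 of them (Igtp, Irgm2, Tgtp1 and Gbp7) also held GAS letters. Of the 11 matched type I effectors 6 held ISRE letters and 4 held GAS letters. Of the 5 transcription factors only Stat2 held ISRE letters and only Irf1 held GAS letters, and no ISRE letters lay in the windows of Psmb8, Psmb9 or Tap1. These matches describe letters in a window and are not measured binding sites.

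The 4 GTPase promoters with both motifs are shown first, because 3 of them share a layout. Each stretch begins 12 bases before its first motif, and capitals mark the ISRE and GAS letters. In Igtp (chr11:58199499-58199555 on the plus strand), Irgm2 (chr11:58214890-58214976 on the plus strand) and Tgtp1 (chr11:48992259-48992346 on the minus strand), the ISRE begins 11 bases after the GAS.
Igtp: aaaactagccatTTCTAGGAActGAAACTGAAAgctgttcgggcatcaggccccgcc
Irgm2: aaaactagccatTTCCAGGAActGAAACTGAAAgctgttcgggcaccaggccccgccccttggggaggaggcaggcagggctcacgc
Tgtp1: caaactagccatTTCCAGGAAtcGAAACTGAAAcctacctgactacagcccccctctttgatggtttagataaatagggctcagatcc
Gbp7: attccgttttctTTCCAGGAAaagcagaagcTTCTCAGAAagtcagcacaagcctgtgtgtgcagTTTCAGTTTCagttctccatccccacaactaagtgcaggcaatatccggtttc
The GAS begins 45, 75 and 88 bases before the start of Igtp, Irgm2 and Tgtp1. Gbp7 (chr3:142530218-142530335 on the plus strand) has a different layout, with GAS letters beginning 106 and 87 bases before its start and ISRE letters on the other strand at 53 bases. The next 4 contrast 2 type I effectors that have ISRE letters alone, Isg15 (chr4:156200819-156200908 on the minus strand, 3 overlapping matches) and Ifit1 (chr19:34640773-34640870 on the plus strand, 2 matches), with Isg20 (chr7:78913339-78913423 on the plus strand) and Irf1 (chr11:53769912-53770013 on the plus strand), which have GAS letters alone.
Isg15: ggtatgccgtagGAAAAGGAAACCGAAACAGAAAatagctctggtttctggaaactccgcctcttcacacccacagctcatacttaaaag
Ifit1: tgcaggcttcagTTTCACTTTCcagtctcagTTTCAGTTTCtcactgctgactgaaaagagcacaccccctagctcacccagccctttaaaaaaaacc
Isg20: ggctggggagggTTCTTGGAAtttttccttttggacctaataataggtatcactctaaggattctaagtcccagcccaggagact
Irf1: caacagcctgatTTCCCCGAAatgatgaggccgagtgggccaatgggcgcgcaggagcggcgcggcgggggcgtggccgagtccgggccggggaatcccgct
Isg20 is the member with the smallest p in the fat comparison below, and Ifi27l2a, Iigp1 and Cxcl11, on which other results turn, were not matched to a promoter.

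In WT mice the order of the members differed between the tissues. Levels per kilobase of the longest annotated transcript (CPM per kb), the scale on which genes can be compared, were headed in fat by Ifi27l2a, a small interferon-induced protein of the ISG12 family, at 1533 ± 267 CPM per kb (SD, n = 5). Bst2 (tetherin, which holds budding virions at the cell surface) came next at 66.7 ± 20.7 CPM per kb, followed by Gbp2 at 32.2 ± 7.97, Irf1 at 25.9 ± 6.87 and Psmb8 at 23.3 ± 4.5 CPM per kb. From Gbp2 to Psmb8, neighbours in the order lay within 1 SD of each other. With the total exon length of the gene in place of the longest transcript, Irf1 became 13.9 and Psmb8 13.2 CPM per kb, and Ifit3 (21.4) and Igtp (16.3) came after Gbp2. In liver the order began with Iigp1, an immunity-related GTPase of the pathogen vacuole, at 218.8 ± 16.6 CPM per kb and Bst2 at 171.0 ± 19.3. With the total exon length those values became 117.3 and 150.0, so their order is not settled by these data. Igtp (57.0 ± 14.7 CPM per kb), Irgm2 (41.9 ± 5.14) and Irgm1 (29.1 ± 3.54) came after them, and Ifi27l2a stood at 25.8 ± 5.36. Cxcl11 was lowest in fat on both lengths, at 0.20 ± 0.17 CPM per kb. In liver Cxcl11 (1.12 ± 0.21 CPM per kb) and Mx1 (1.18 ± 0.32) were the lowest and lay within 1 SD of each other, and the total exon length reversed their order.

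Between WT fat and WT liver 23 of the 39 members were called at an adjusted p under 0.05 (59.0%), while 74.3% of all 14739 genes were called (edgeR's quasi-likelihood test with Benjamini-Hochberg adjustment). By direction, 5 members were higher in fat (background 38.4%) and 18 were lower (background 35.9%). Members with a lower estimate in fat numbered 27 of 39, against 48.4% of all genes, and the median log2 difference of the members was -0.30, against 0.04 for all genes. With upper quartile scaling, which moves the median of all genes from 0.04 to 0.34, the split of called members became 11 higher and 14 lower, and that of all genes 48.6% higher and 26.1% lower. Under that scaling 20 of 39 estimates were lower in fat, against 37.3% of all genes. The median of the members was 0.00, against 0.34 for all genes. The number of members lower in fat thus depends on the scaling. Their median lay below that of all genes under both scalings. With upper quartile scaling Cxcl10, Ifi44, Irf9 and Parp14 were no longer called, and Gbp3, Gbp6, Ifit2, Irf1, Oas1a and Rsad2 were.

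**Figure D1:**
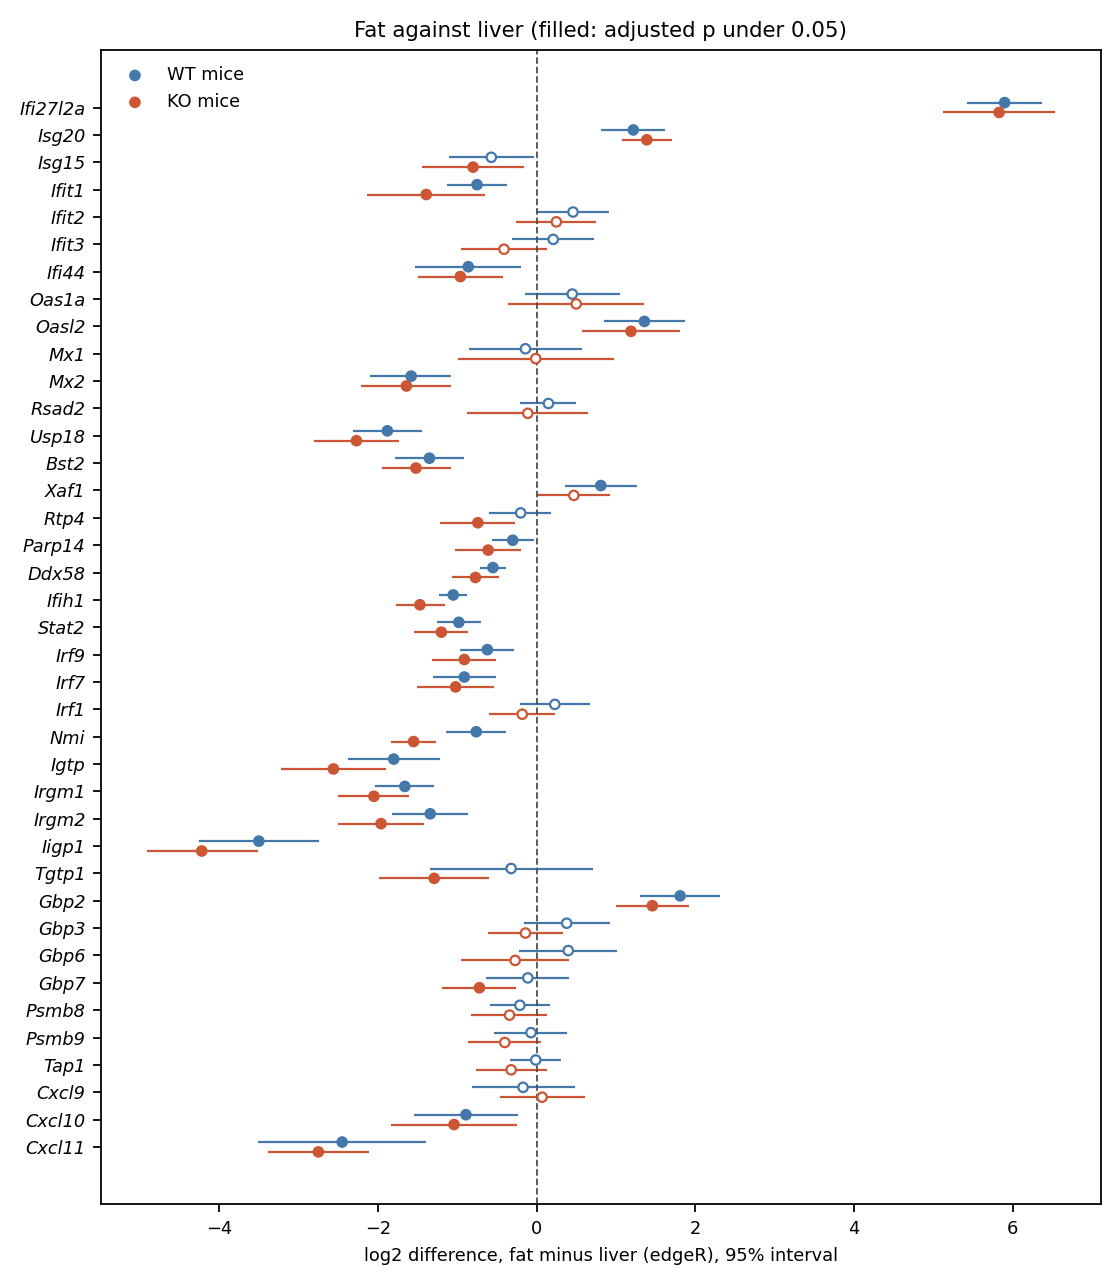
Difference between fat and liver for each member (log2, fat minus liver, with 95% interval), in WT mice (blue) and KO mice (red), with filled points at an adjusted p under 0.05. Ifi27l2a lies alone at 5.90 in WT and 5.83 in KO, and Iigp1 is the lowest at -3.50 and -4.22.

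Ifi27l2a was measured at 817, 523, 657, 735 and 816 CPM in the 5 WT fat libraries and at 13.7, 8.68, 10.3, 12.2 and 14.8 CPM in the 5 WT liver libraries. The groups were far apart, and the gene was 59.7-fold higher in fat (95% interval 43.0 to 83.0, adjusted p = 6.107e-10 by edgeR). The other members that were higher in fat were Gbp2 (a guanylate-binding protein, log2 difference 1.81), Oasl2 (an oligoadenylate synthetase relative, 1.36), Isg20 (1.22) and Xaf1 (a promoter of apoptosis, 0.81). Gbp2 was measured at 111, 67.8, 58.6, 80.0 and 88.0 CPM in WT fat and 38.2, 21.2, 20.7, 17.2 and 19.0 CPM in WT liver, with no overlap.

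Iigp1 showed the opposite order, with 121, 41.5, 30.0, 64.2 and 44.6 CPM in WT fat and 616, 653, 753, 686 and 706 CPM in WT liver. All liver libraries lay above all fat libraries, and the gene was 11.3-fold lower in fat (adjusted p = 2.022e-06 by edgeR). Of its relatives among the immunity-related GTPases, Igtp (log2 difference -1.80), Irgm1 (-1.66) and Irgm2 (-1.34) were also lower in fat, while Tgtp1 (-0.32, adjusted p = 0.552) was not called. Cxcl11 was 5.48-fold lower in fat (log2 difference -2.45, adjusted p = 0.0006399). Usp18, which strips ISG15 from proteins and restrains the type I receptor, was 3.67-fold lower, and Bst2 2.55-fold lower. Mx2, of a family of dynamin-like antiviral GTPases but annotated as a polymorphic pseudogene, was 3.00-fold lower. Both RNA sensors were lower in fat, Ifih1 (MDA5) by a log2 difference of -1.05 and Ddx58 (RIG-I) of -0.55, as were Stat2 (-0.98), Irf7 (-0.91), Nmi (-0.76) and Irf9 (-0.62). Psmb8, Psmb9 and Tap1 were called neither by edgeR (0 of 3, and 0 of 3 at an unadjusted p under 0.05) nor by DESeq2 or limma-voom, with log2 differences between -0.21 and -0.01.

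In KO mice 26 of the 39 members were called between fat and liver (66.7%), against 74.4% of 14603 genes. Of these 4 were higher in fat (background 38.8%) and 22 were lower (background 35.6%). A lower estimate was seen in 31 of 39, against 48.1% of genes (26 of 39, against 37.9%, with upper quartile scaling). Upper quartile scaling again moved the median of all genes (0.05 to 0.33) and gave 5 higher and 17 lower among called members, with 48.3% and 26.7% of all genes. Ifi27l2a was 56.9-fold higher in KO fat, and Iigp1 was 18.6-fold lower. Nmi was 2.94-fold lower in KO fat than in KO liver and 1.69-fold lower in WT fat than in WT liver. Without the libraries with foreign transcripts 22 of 39 members were called between the WT tissues, against 9155 of 14890 genes. Between the KO tissues 27 of 39 were called, against 11017 of 14786 genes. Lower estimates in fat were then seen in 25 of 39 members in WT, against 47.7% of genes, and in 29 of 39 in KO, against 48.9%. The test of the difference between the genotypes is given below.

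In fat, no member was called between KO and WT (0 of 39), and no gene of 14707 was (0.0%). The smallest adjusted p was 0.687 by edgeR's quasi-likelihood test with Benjamini-Hochberg adjustment. At an unadjusted p under 0.05 there were 9 members (23.1%), against 7.13% of all genes, and all 9 were lower in KO, against 3.64% of all genes. They were Ifi27l2a, Isg20, Irf7, Nmi, Igtp, Irgm1, Irgm2, Gbp2 and Psmb9. Altogether 34 of the 39 estimates were lower in KO (87.2%), against 49.9% of genes, and the median log2 difference was -0.31, against 0.00 for all genes. The members are co-regulated, so these counts do not come from 39 independent measurements. They were also chosen with earlier results of these data known. Shares of members set beside shares of all genes, here and below, are therefore descriptions and not a test. DESeq2 called 16 genes (0.109%), among them 1 member, Isg20, and limma-voom with quality weights called no gene (0.0%), with 5 members (12.8%) at an unadjusted p under 0.05, against 6.97% of all genes.

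**Figure D2:**
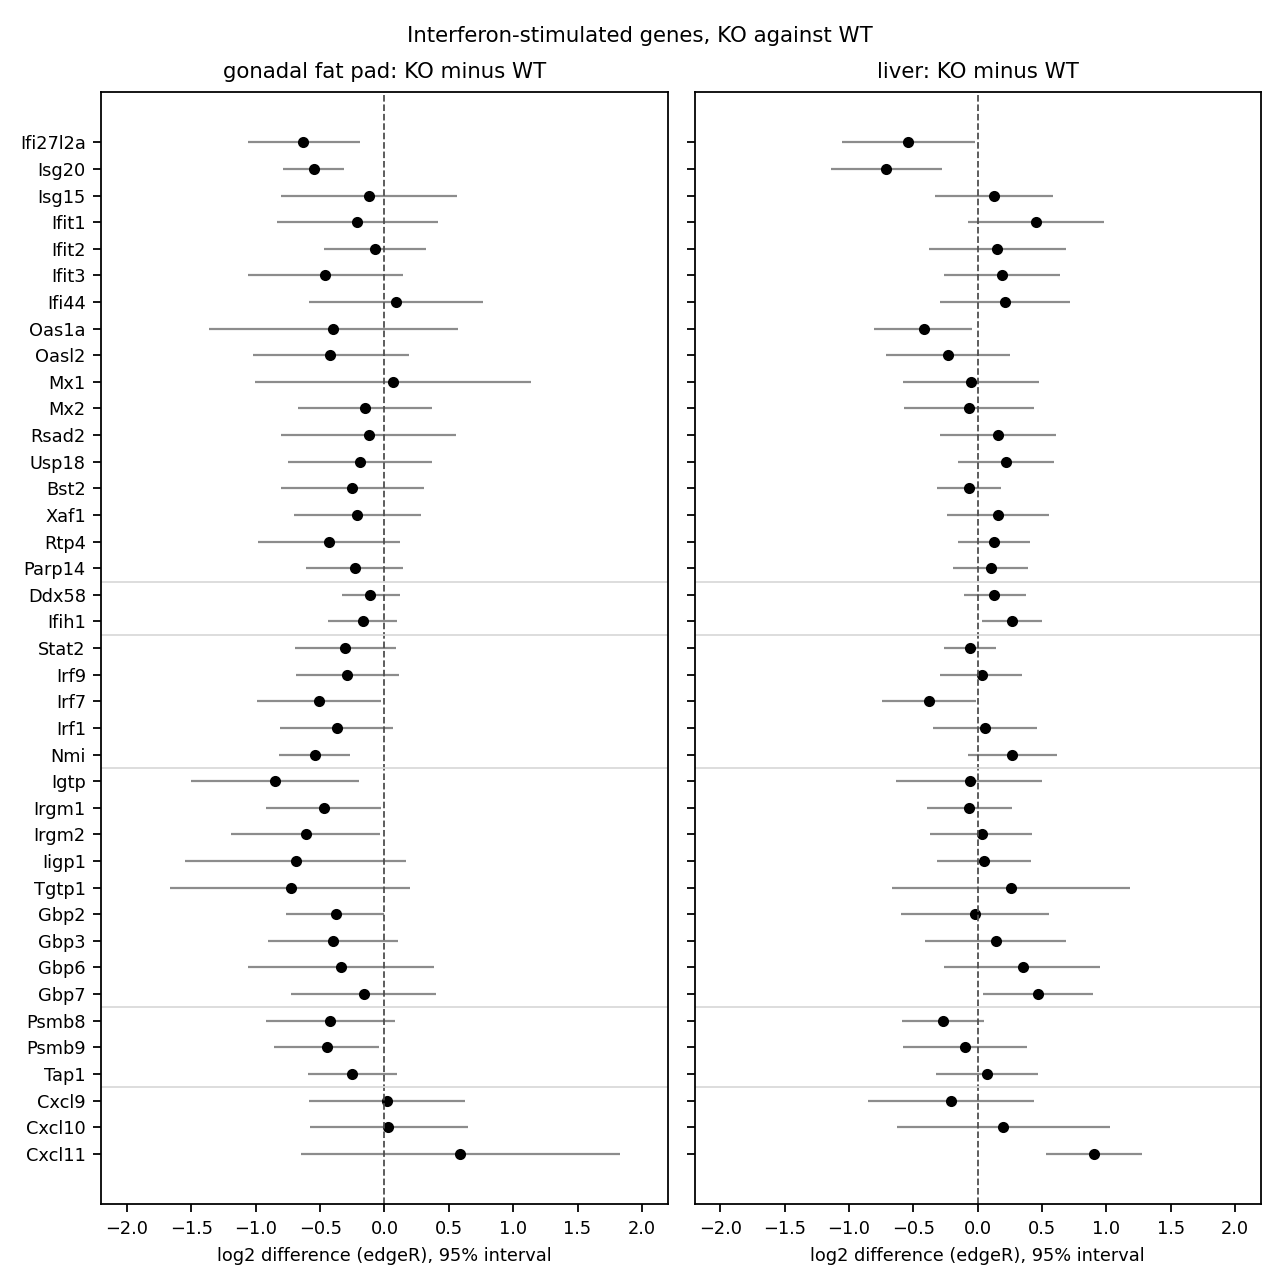
Difference between KO and WT (log2, KO minus WT, with 95% interval) for the 39 members in fat (left) and liver (right), grouped by class. In fat 34 of 39 estimates lie below 0, and in liver 15 of 39 do.

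Among the 17 type I effectors in fat, 15 estimates were lower in KO and 2 were higher (Ifi44 and Mx1). Their median log2 difference was -0.21, and none was called. Isg20, an exonuclease that degrades single-stranded RNA (ENSMUSG00000039236, chromosome 7, 78913424 to 78920396, GRCm38), was measured at 12.5, 11.2, 15.3, 12.3 and 15.6 CPM in WT and 9.09, 8.92, 8.78, 9.18 and 9.76 CPM in KO. The KO libraries lay close together, and every one was below every WT library. KO levels were 0.682 of WT levels (95% interval 0.579 to 0.805, log2 difference -0.55 with SE 0.11), with an unadjusted p of 0.00037 and an adjusted p of 0.687 by edgeR, against 0.01647 by DESeq2. Over all alternatives the adjusted p ran from 0.01647 to 0.9856. Only Isg20 and Nmi had KO libraries entirely below the WT ones (2 of 39), which 0.619% of all genes showed. Ifi27l2a (ENSMUSG00000079017, chromosome 12, 103442167 to 103443680) stood at 463, 332, 536, 617 and 355 CPM in KO fat, beside the WT values given above. KO 3 and KO 4 fell within the WT range, and the ratio was 0.648 (95% interval 0.479 to 0.877, adjusted p = 0.687). Oas1a, which makes the oligoadenylates that activate RNase L, spread widely in both genotypes, from 4.76 to 16.2 CPM in WT and 2.87 to 12.5 CPM in KO. The Ifit genes, which bind viral RNA ends, had log2 differences of -0.21 (Ifit1), -0.07 (Ifit2) and -0.46 (Ifit3), and that of Isg15, a ubiquitin-like modifier, was -0.12.

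The 2 RNA sensors had small estimates in fat, with log2 differences of -0.17 for Ifih1 and -0.11 for Ddx58. Ifih1 was measured at 35.7, 30.3, 28.1, 33.7 and 31.8 CPM in WT and 26.3, 21.9, 28.3, 33.3 and 32.4 CPM in KO, and 3 KO libraries lay within the WT range. All 5 transcription factors and partners had lower estimates in KO fat, and their median log2 difference was -0.37. Nmi, a partner of STAT proteins (ENSMUSG00000026946, chromosome 2, 51948487 to 51973494), was measured at 15.3, 9.39, 13.2, 11.9 and 13.5 CPM in WT and 8.06, 9.12, 8.30, 9.37 and 8.66 CPM in KO. The groups did not overlap, but WT 2 and KO 4 were nearly equal. The ratio was 0.686 (95% interval 0.566 to 0.832, unadjusted p = 0.001287, adjusted p = 0.687 by edgeR, and 0.08322 to 0.9856 over the alternatives). Irf7, which drives type I interferon genes, was measured at 42.1, 28.6, 35.3, 48.4 and 48.8 CPM in WT and 23.3, 22.7, 26.6, 45.7 and 24.8 CPM in KO. KO 4 reached the level of the WT libraries, and the other 4 KO libraries were below all of them. Irf7 overlaps Phrf1 on the opposite strand, and how the counting treated strand is not stated. The log2 difference was -0.51 (SE 0.22), and without KO 4 it was -0.74. Stat2, Irf9 and Irf1 had log2 differences of -0.31, -0.29 and -0.37.

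All 9 GTPases had lower estimates in KO fat, from -0.85 (Igtp) to -0.16 (Gbp7) on the log2 scale, with a median of -0.47, and 4 had an unadjusted p under 0.05. Igtp (Irgm3, which guards the cell's own membranes, ENSMUSG00000078853, chromosome 11, 58199556 to 58207591) was measured at 56.7, 21.8, 25.3, 32.0 and 29.3 CPM in WT and 11.6, 14.2, 18.0, 28.3 and 19.8 CPM in KO. WT 1 stood high, and KO 4 lay inside the WT range. The ratio was 0.556 (95% interval 0.353 to 0.873, unadjusted p = 0.01577, adjusted p = 0.687 by edgeR), and the log2 difference lay between -1.06 and -0.56 as each library was left out. Irgm1, a regulator of the other immunity-related GTPases, was measured at 49.1, 23.8, 33.5, 31.2 and 37.5 CPM in WT and 19.4, 19.6, 28.7, 32.3 and 26.1 CPM in KO, with KO 3, KO 4 and KO 5 inside the WT range. Iigp1 was measured at 23.1, 26.8, 33.6, 60.2 and 43.2 CPM in KO fat. Its log2 difference of -0.69 (SE 0.39) became -0.28 without WT 1, the highest of the 10 fat libraries. The 4 guanylate-binding proteins had log2 differences between -0.40 and -0.16. Gbp2 was measured at 60.0, 54.8, 51.5, 72.0 and 72.8 CPM in KO (log2 difference -0.38), Gbp6 at 49.2, 21.1, 14.8, 27.6 and 28.9 CPM in WT and 17.6, 13.3, 21.7, 33.4 and 26.0 CPM in KO (-0.34). Gbp7 was measured at 72.3, 45.2, 26.5, 51.5 and 40.3 CPM in WT and 35.8, 31.8, 36.3, 55.4 and 52.0 CPM in KO (-0.16, and 0.04 without WT 1). Its counts were not whole in 18 of 20 libraries and those of Tgtp1 in 15, and both overlap another gene on the same strand, so their values are uncertain. Igtp and Irgm2 overlap each other on the same strand, and their counts were whole in all 20 libraries.

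The 3 antigen processing genes were lower in KO fat as estimates, with log2 differences of -0.45 for Psmb9, -0.42 for Psmb8 and -0.25 for Tap1. Psmb9, a catalytic subunit of the immunoproteasome, was measured at 24.5, 16.2, 19.99, 21.4 and 22.2 CPM in WT and 11.9, 11.2, 16.8, 22.1 and 14.7 CPM in KO. KO 1, KO 2 and KO 5 lay below all WT libraries, and KO 3 and KO 4 lay among them. Psmb8, its partner subunit, was measured at 51.5, 32.7, 47.9, 38.3 and 52.0 CPM in WT and 22.5, 22.5, 45.4, 44.1 and 31.9 CPM in KO, with the same 2 KO libraries among the WT values. Psmb9 and Tap1 likewise overlap on opposite strands.

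The 3 CXCR3 chemokines, which draw activated T and NK cells, were the class without a lower estimate in KO fat, with log2 differences of 0.02 (Cxcl9), 0.03 (Cxcl10) and 0.59 (Cxcl11). Cxcl11 (ENSMUSG00000060183, chromosome 5, 92359544 to 92365485, annotated as a polymorphic pseudogene) was measured at 0.920, 1.76, 0.356, 0.601 and 0.142 CPM in WT and 1.73, 1.25, 0.479, 1.27 and 1.05 CPM in KO. The groups overlapped, and the lowest WT library rested on 3 counts, so its 95% interval for the ratio was wide (0.639 to 3.56).

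**Figure D3:**
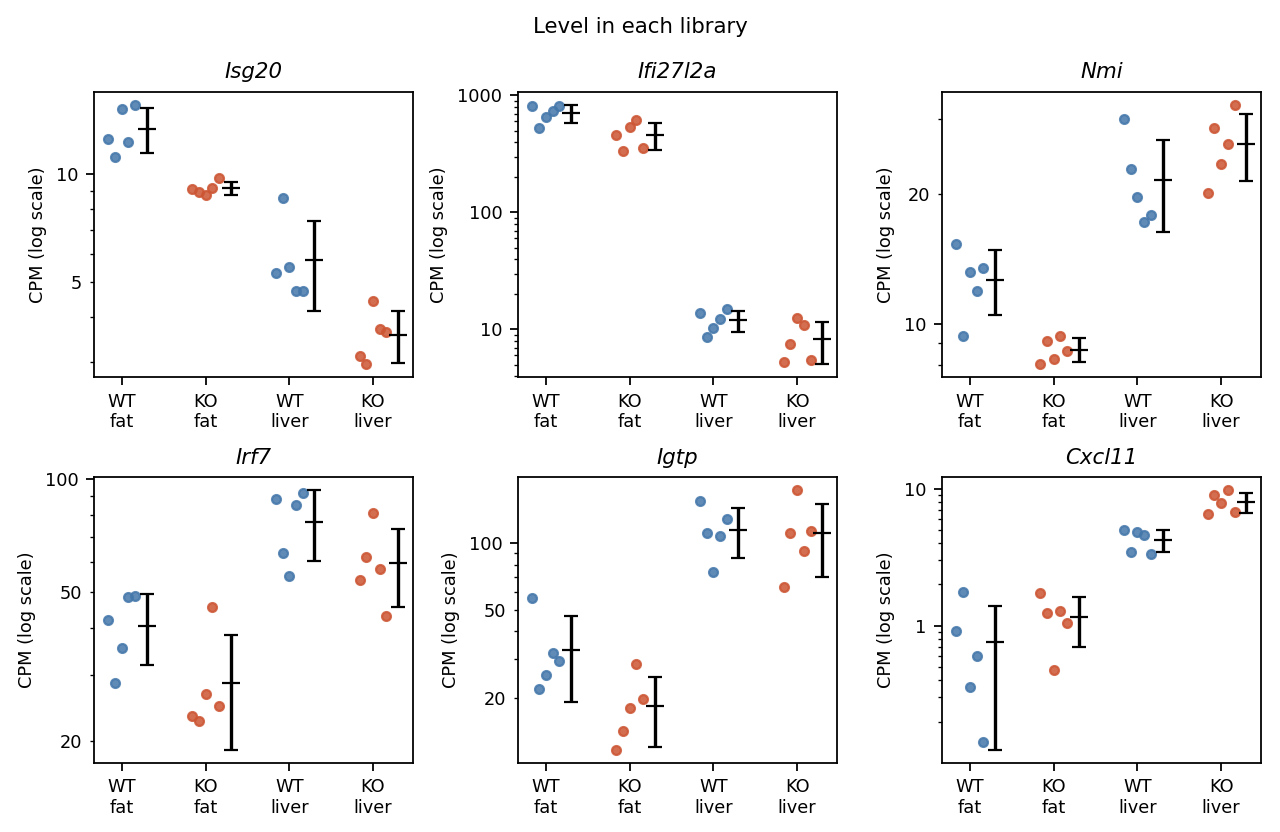
Level of 6 members in each library (CPM, log axis), with mean ± SD (n = 5), in WT (blue) and KO (red) fat and liver. Isg20 is lower in all 5 KO than in all 5 WT libraries in both tissues, and Cxcl11 is higher in all 5 KO liver libraries.

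The members varied together from library to library. A score was taken as the mean over the 39 members of log2 CPM minus each gene's own mean in the tissue. In fat it was 0.47, -0.23, 0.04, 0.16 and 0.31 in WT 1 to 5, and -0.53, -0.54, -0.03, 0.30 and 0.04 in KO 1 to 5. The ranges overlapped, with KO 1 and KO 2 lowest and WT 1 highest. In KO 1 and in KO 2 37 of 39 members lay below their own mean, as did 34 in WT 2, while in KO 4 37 of 39 lay above it. The type I effectors were highest in WT 5 (0.52) and lowest in KO 1 (-0.73), whereas the GTPases were highest in WT 1 (1.05) and lowest in KO 2 (-0.63). The 9 members at an unadjusted p under 0.05 in fat became 4 without WT 1, KO 1 or KO 2 and 5 without WT 4, WT 5 or KO 5. They became 14 without WT 2 and 15 without KO 4. The share of all genes at that p lay between 4.28% and 8.88% in the 10 fits, against 10.3% to 38.5% of the members. Over all 10 such fits between 31 and 37 members were lower in KO, and the median log2 difference lay between -0.41 and -0.19.

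**Figure D4:**
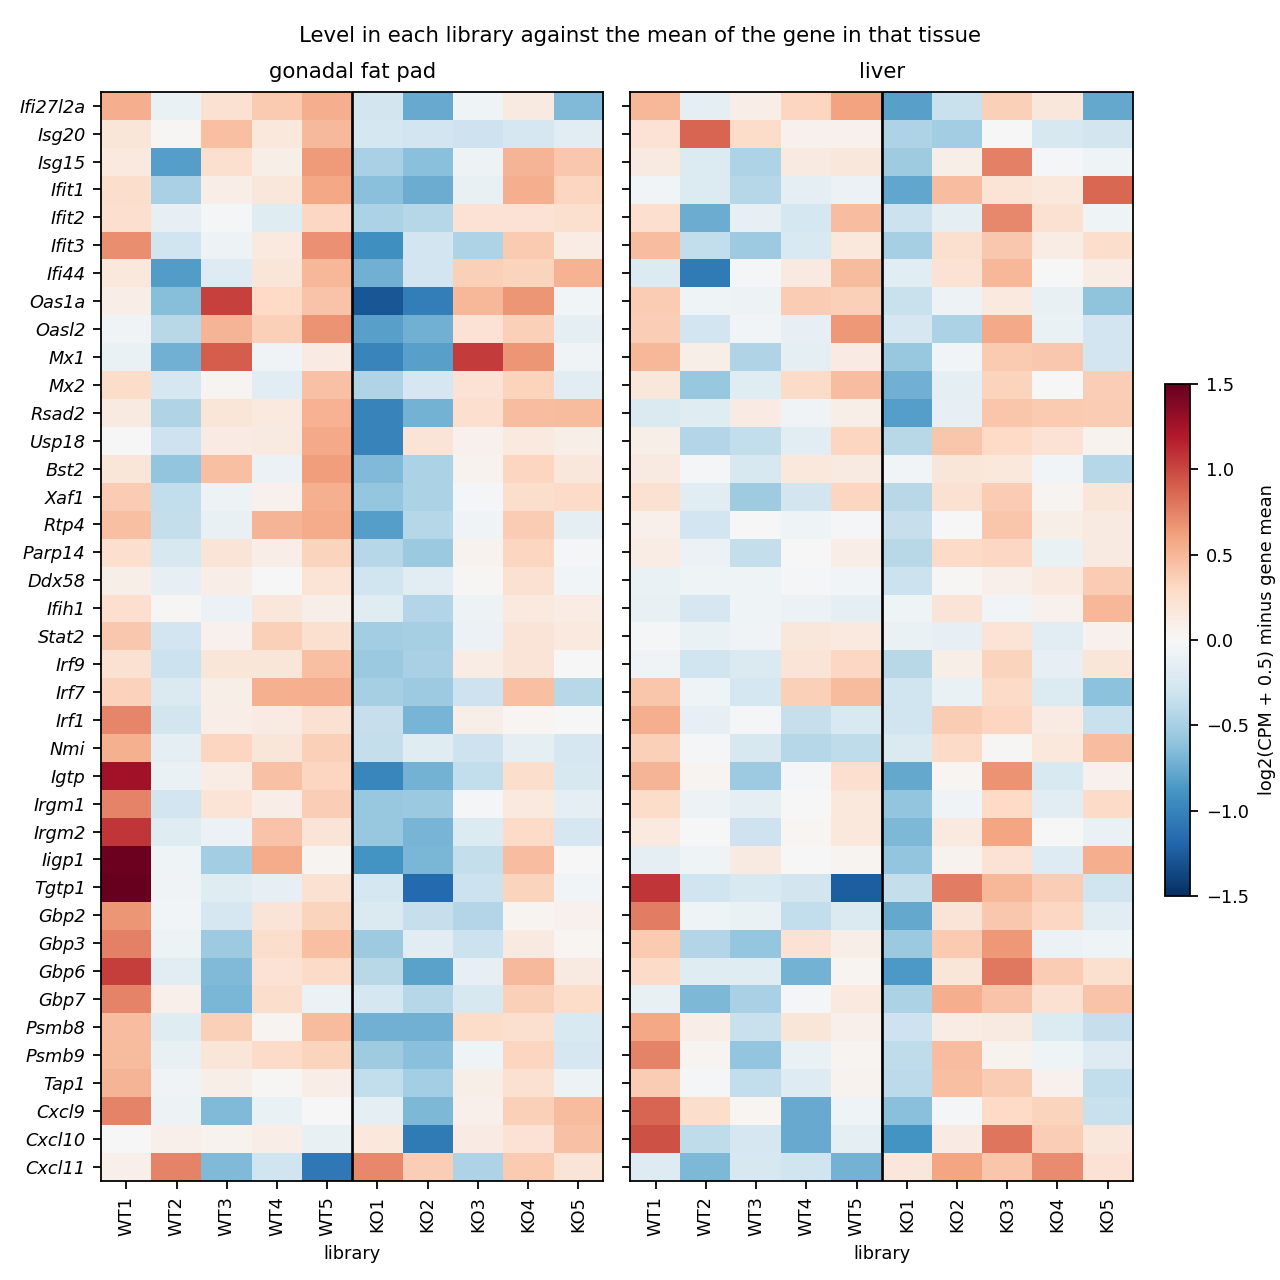
Level of each member in each library as log2(CPM + 0.5) minus the gene's mean in that tissue, in fat (left) and liver (right), with WT 1 to 5 and KO 1 to 5 in columns and genes grouped by class. Whole columns share a colour, with 37 of 39 members below their mean in fat KO 1 and KO 2 and 38 of 39 in liver KO 1.

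The summed level of 10 macrophage markers, all detected, ran from 671.3 to 2458 CPM in WT fat (median 986.4) and from 530.4 to 1665 CPM in KO fat (median 648.7). KO 1 and KO 2, with the lowest scores, had sums of 573.5 and 530.4 CPM, and KO 4, with the highest KO score, had 1546 CPM. WT 1, with the highest score of all, had 671.3 CPM, the lowest of the WT fat libraries, and the highest sums of each genotype, 2458 CPM in WT 3 and 1665 CPM in KO 3, went with scores near 0. Hepatocyte markers (7 of 7 detected) summed to 2540, 2396, 2969, 4981 and 2898 CPM in WT fat and to 2013, 1915, 2199, 1467 and 2033 CPM in KO fat, so every KO fat library was below every WT one on that list. Erythroid markers (6 of 6 detected) summed to between 466.0 and 3150 CPM in WT fat (median 1375) and between 369.9 and 1287 CPM in KO fat (median 516.1). The genes listed as plasmacytoid dendritic cell markers were Siglech, Ccr9, Ly6d, Tcf4, Klk1 and Cox6a2 (6 of 6 detected, but 5 of 6 in WT 1 and in KO 1). How much each gave to the sum is not shown, so the sum is not a measure of that cell type. They summed to between 97.7 and 120.3 CPM in WT fat. In KO fat they summed to between 116.8 and 267.8 CPM. The highest sum was that of KO 2, a library with foreign transcripts, and the next was 161.9 CPM in KO 5. T cell markers (8 of 8 detected) summed to between 9.97 and 16.4 CPM in WT and between 9.22 and 14.2 CPM in KO. KO 2 also carried bladder transcripts (a summed level of 1575 CPM, against at most 2.27 CPM in WT fat) and skeletal muscle transcripts (555.0 CPM), WT 2 carried the latter at 813.9 CPM, and transcripts of the uterus and oviduct list summed to 544.8 CPM in KO 2 and 105.1 CPM in WT 5, against a median of 8.77 CPM in the others. The part of these markers in the result was not tested. Without fat libraries WT 2, WT 5 and KO 2 32 members had lower estimates in KO, the median log2 difference was -0.30, 6 had an unadjusted p under 0.05 (15.4%, against 4.39% of all genes) and none was called. The log2 differences were then -0.53 for Isg20, -0.64 for Nmi and -0.96 for Igtp.

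**Figure D5:**
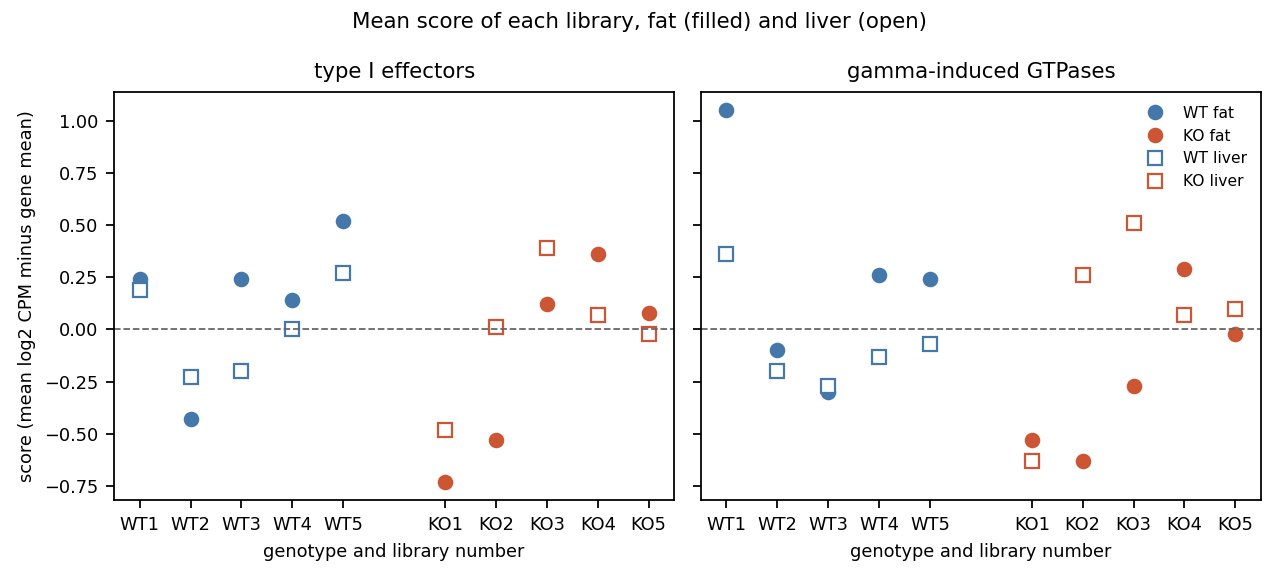
Mean score per library (log2 CPM minus each gene's mean in the tissue) of the 17 type I effectors (left) and the 9 GTPases (right), in fat (filled) and liver (open), WT and KO. KO and WT overlap in each tissue, and WT fat 1 stands at 1.05 for the GTPases.

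In liver, no member was called between KO and WT (0 of 39), while 1 gene of 13298 was (0.00752%), by edgeR's quasi-likelihood test with Benjamini-Hochberg adjustment. The members were divided in direction, with 24 higher and 15 lower in KO, against 50% of all genes lower, and a median log2 difference of 0.07, against 0.00. At an unadjusted p under 0.05 there were 7 members (17.9%), against 13.1% of genes. Of these, 3 were higher (Cxcl11, Ifih1 and Gbp7) and 4 were lower (Ifi27l2a, Isg20, Oas1a and Irf7), against 6.56% of genes in each direction. DESeq2 called 138 genes (1.04%) and limma-voom 3 (0.0226%), and without a filter on low counts edgeR called 15 (0.0643%). Cxcl11 was the 1 member called by DESeq2 and the 1 member called without the filter, and limma-voom called no member. Leaving out KO 3 gave 23 members lower in KO, and leaving out KO 1 or WT 1 gave 10, so the split between directions rests on these libraries. The 7 members at an unadjusted p under 0.05 became 4 without WT 4, 3 without WT 5 or KO 2 and 2 without KO 5. In these fits 11.2% to 13.8% of all genes had such a p. Without KO 1 they became 10 (25.6%), against 12.1% of all genes. No gene was called without WT 3 or WT 5.

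Cxcl11 was measured at 4.97, 3.44, 4.83, 4.62 and 3.34 CPM in WT liver and 6.58, 8.93, 7.87, 9.73 and 6.80 CPM in KO liver. Every KO library was above every WT one. The ratio was 1.87 (95% interval 1.44 to 2.43, log2 difference 0.90 with SE 0.18), with an unadjusted p of 0.000135 and an adjusted p of 0.138 by edgeR, against 0.001932 by DESeq2. Over all alternatives the adjusted p ran from 0.001932 to 0.4241. Its counts were not whole in 16 of 20 libraries and it overlaps Art3 on the opposite strand. Cxcl9 and Cxcl10 had log2 differences of -0.21 and 0.20. Ifih1, at 67.4, 61.0, 69.4, 68.5 and 66.0 CPM in WT and 69.7, 82.9, 70.7, 75.9 and 103 CPM in KO, also had all KO libraries above WT, by a margin between KO 1 and WT 3 that is small beside the spread of the KO libraries (log2 difference 0.27, adjusted p = 0.338 by edgeR). Together they were 2 of 39 with KO entirely above WT, which 1.77% of all genes showed.

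Isg20 was lower in KO liver as it was in KO fat, at 5.29, 8.60, 5.52, 4.71 and 4.71 CPM in WT and 3.12, 2.95, 4.43, 3.69 and 3.62 CPM in KO. It was the 1 member with all KO liver libraries below WT, which 1.07% of genes showed. The ratio was 0.613 (95% interval 0.455 to 0.826, adjusted p = 0.231 by edgeR), and the log2 difference of -0.71 became -0.52 without WT 2, the highest library. Ifi27l2a was measured at 5.24, 7.49, 12.4, 10.8 and 5.43 CPM in KO liver. KO 3 and KO 4 again lay within the WT range, and the log2 difference was -0.54 (SE 0.24, adjusted p = 0.363 by edgeR). Irf7 was measured at 88.2, 63.4, 55.1, 85.2 and 91.8 CPM in WT liver and 53.7, 62.0, 81.1, 57.6 and 43.1 CPM in KO liver, with overlap and a log2 difference of -0.38. Oas1a was measured at 8.18, 5.91, 5.82, 8.20 and 8.05 CPM in WT liver and 4.82, 5.83, 6.88, 5.67 and 3.91 CPM in KO liver, with overlap and a log2 difference of -0.42. Isg20, Ifi27l2a and Irf7 were the 3 of 39 members with a lower estimate and an unadjusted p under 0.05 in both tissues, which 0.474% of the 12447 genes tested in both showed. Because members were chosen with earlier results of these data known, that share does not test whether they stand out. Without the libraries with foreign transcripts Irf7 had an unadjusted p of 0.0897 in fat and 0.067 in liver.

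The GTPases, all lower as estimates in fat, were divided in liver, with 6 higher, 3 lower and a median log2 difference of 0.05. Igtp was measured at 155, 112, 74.0, 107 and 129 CPM in WT liver and 63.7, 111, 174, 92.6 and 113 CPM in KO liver (log2 difference -0.06). Irgm1 was measured at 130.4, 102, 96.9, 108 and 119.6 CPM in WT and 71.0, 104, 133, 95.6 and 132 CPM in KO (-0.07), again with KO 1 lowest. Iigp1 ran from 616 to 753 CPM in WT and more widely, at 454, 710.0, 792, 596 and 1001 CPM, in KO (0.05). Gbp7 was measured at 54.7, 36.7, 42.1, 57.6 and 65.5 CPM in WT liver and 42.5, 86.1, 79.3, 69.3 and 79.5 CPM in KO liver, where KO 1 alone lay within the WT range (log2 difference 0.47, adjusted p = 0.348 by edgeR). Gbp6 was measured at 28.6, 20.6, 20.5, 14.1 and 24.1 CPM in WT and 12.7, 26.5, 40.8, 30.6 and 27.6 CPM in KO (0.35). Gbp2 was measured at 12.9, 25.6, 29.6, 27.6 and 19.8 CPM in KO liver (-0.02). In 5 of these 6 genes KO 1 was the lowest of the 10 liver libraries.

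Nmi had a higher estimate in KO liver, at 30.0, 22.97, 19.7, 17.3 and 17.9 CPM in WT and 20.1, 28.5, 23.6, 26.2 and 32.3 CPM in KO, with overlap and a log2 difference of 0.27 (SE 0.16). The immunoproteasome genes overlapped too. Psmb8 was measured at 69.7, 50.1, 36.8, 52.8 and 49.3 CPM in WT liver and 37.5, 50.2, 51.2, 40.5 and 36.6 CPM in KO liver (log2 difference -0.27), and Psmb9 at 34.9, 21.2, 13.6, 19.3 and 21.2 CPM and 15.8, 28.6, 21.4, 19.7 and 18.1 CPM (-0.10). Scores over the 39 members were 0.28, -0.19, -0.22, -0.08 and 0.08 in WT liver 1 to 5 and -0.46, 0.13, 0.37, 0.08 and 0.01 in KO liver 1 to 5. KO 1 was lowest, with 38 of 39 members below their own mean, and KO 3 highest, with 37 of 39 above it. Fat library KO 1 was also among the lowest, but the sources used here do not say whether fat and liver libraries of 1 number come from 1 mouse. Kupffer cell markers (5 of 5 detected) summed to between 308.6 and 609.7 CPM in WT liver and between 270.8 and 385.2 CPM in KO liver, and macrophage markers to between 373.9 and 655.4 CPM and between 338.1 and 421.5 CPM. Their part in the result was not tested. Without liver libraries WT 2 and WT 4, which carried skeletal muscle transcripts, 19 members were lower in KO, the median log2 difference was 0.01, 4 had an unadjusted p under 0.05 (10.3%, against 7.35% of all genes) and none was called.

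Whether the KO effect differed between fat and liver was tested as an interaction over all 20 libraries. Here and in the tissue comparisons libraries of 1 number were treated as unpaired, because whether they come from 1 mouse is not stated. None of 39 members was called, and none of 15652 genes was (0.0%), by edgeR's quasi-likelihood test with Benjamini-Hochberg adjustment. DESeq2 called 2 genes (0.0128%), no member among them, and limma-voom none (0.0%). Estimates were more negative in fat for 35 of the 39 members (89.7%), against 49.1% of genes, with a median of -0.33 on the log2 scale, against 0.01. The exceptions were Isg20, Oas1a, Mx1 and Cxcl9. At an unadjusted p under 0.05 there were 2 members (5.13%), close to the 5.36% of all genes, and both were lower in fat, against 2.61% of genes. Nmi had the larger difference, at -0.82 (SE 0.22, unadjusted p = 0.00143, adjusted p = 0.873), and Ifih1 had -0.44 (unadjusted p = 0.0131, adjusted p = 0.903). All 9 GTPases were more negative in fat, with a median of -0.65 and none at an unadjusted p under 0.05. The 2 members at an unadjusted p under 0.05 became 11 without fat KO 4, 10 without liver KO 1, 7 without fat WT 3 or liver WT 1 and 5 without fat WT 2. The share of all genes at that p lay between 5.34% and 7.97% in these 5 fits. With same-numbered fat and liver libraries of a genotype taken as pairs, 8 members (20.5%) had such a p, against 4.16% of all genes. No member was called in that fit, and 36 of 39 were more negative in fat. Without the libraries with foreign transcripts 30 of 39 were more negative in fat, the median was -0.24 and 1 member (2.56%) had an unadjusted p under 0.05, against 3.49% of all genes. For Isg20 the difference between tissues was 0.15 (SE 0.22), with a 95% interval of the ratio from 0.800 to 1.53.

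The interferon genes themselves were near or at 0. Of 21 ligand genes, none passed the filter on low counts. Ifng, which encodes interferon gamma, reached at most 0.296 CPM in any library, and Ifnk, Ifne, Ifnab and Ifna7 reached at most 0.145, 0.0948, 0.0802 and 0.0541 CPM. Every other ligand gene was at 0 in all 20 libraries. The chains of the type I receptor had log2 differences between KO and WT fat of 0.03 (Ifnar1, SE 0.14) and 0.00 (Ifnar2, SE 0.12). Ifngr1, the binding chain of the interferon gamma receptor, was measured at 143, 129, 132, 165 and 160.5 CPM in WT fat and 144, 121, 106, 114 and 126 CPM in KO fat. The groups overlapped, and the ratio was 0.836 (unadjusted p = 0.04107, adjusted p = 0.687 by edgeR). In liver its levels were 43.0, 46.5, 45.0, 31.0 and 33.9 CPM in WT and 33.0, 29.8, 31.3, 32.9 and 33.3 CPM in KO, with a ratio of 0.798 (unadjusted p = 0.01272, adjusted p = 0.268 by edgeR). Ifngr2 had log2 differences of 0.03 in both tissues, Il10rb of -0.04 in fat and -0.18 in liver, and Ifnlr1, near the detection limit, was tested in fat only (1.31, SE 0.62, and 0.31 without KO 2, the library with bladder transcripts).

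Inhibitors of the pathway were divided in fat (4 higher, 3 lower of 7). In liver 5 of 6 were lower, with Socs3, which blocks Janus kinases, at a log2 difference of -0.62 (unadjusted p = 0.01137, adjusted p = 0.261 by edgeR). Of 15 sensors and adaptors that induce interferons, 8 were lower in fat, led by Irf3 (-0.26, unadjusted p = 0.0037) and Zbp1 (-0.86, unadjusted p = 0.04766), and 10 were lower in liver, led by Irf8 (-0.44).

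Interferon-induced genes outside the 39 members were counted in the same way. These lists too were chosen with earlier results of these data known, so their counts are not an independent check. Over all genes 49.9% had lower estimates in KO fat and 50% in KO liver, and 7.13% and 13.1% had an unadjusted p under 0.05. Of 53 other type I induced genes tested in fat, 46 had lower estimates in KO. The median was -0.20, with 7 at an unadjusted p under 0.05 (Ifi205 at -1.02 and Ifitm2 at -0.41 had the smallest p). In liver 29 of 53 were lower, with a median of -0.03 and 10 at an unadjusted p under 0.05, led by Parp12 (0.30) and Oas3 (-0.97). Other gamma-induced GTPases were lower as estimates in fat in 10 of 11 (median -0.39) and in liver in 7 of 11 (-0.08). Other genes of antigen processing and MHC class I were lower in fat in 13 of 13 (median -0.25), with 4 at an unadjusted p under 0.05, Psme2 (-0.27) and Tapbp (-0.25) among them, and in liver in 10 of 13 (-0.13). Other gamma-induced genes, genes of MHC class II among them, were lower in 8 of 9 in each tissue, with Serping1, the inhibitor of complement C1, at -0.39 in fat and -0.23 in liver. No gene of these lists was called between KO and WT in either tissue by edgeR.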

How the data were processed

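The values analysed are expected counts per gene, which need not be whole, as deposited by the authors in 1 column per library (20 columns). RNA was extracted with RNeasy and made into stranded TruSeq mRNA libraries, per the labels. Build GRCm38 is named, per the submitters' processing notes, with the tools RSEM 1.2.12, STAR 2.4.0d, Trim Galore 0.2.8 and DESeq2, without settings. Between 3.95% and 5.8% of the values of a library were not whole.

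Counts were rounded, filtered with filterByExpr (minimum count 10, minimum total 15), scaled by TMM and tested with edgeR 4.0.16 (quasi-likelihood, robust, limma 3.58.1, R 4.3.3) in each tissue, between tissues within each genotype, and for the interaction. Benjamini-Hochberg adjustment ran over all genes tested, and an adjusted p under 0.05 was called. All 39 members passed the filter in all comparisons. Log2 CPM used a prior count of 2, and marker sums plain library sizes. Symbols came from GENCODE (48058 of 48440 rows matched). Of 264 pathway and marker symbols 1 was not matched. Results for 1 list of pathway genes are not reported here. The main edgeR fit was tested on simulated counts and the motif search on planted motifs. The other steps were not tested in this way.

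Members and lists were chosen with earlier results of these data known. Values in every library are given for the 2 members of each class with the smallest p in each tissue (1 for classes of 2 or 3), members whose KO and WT libraries do not overlap, and the 2 with the largest tissue difference in each direction, 15 in all. The 5 mice of a group were separate, and no pair of libraries was a duplicate (chi-square per degree of freedom at least 15.95). Replicate numbers were not used to pair libraries in the main fits. Alternatives were RLE and upper quartile scaling, 2 other filters, DESeq2 1.42.0, limma-voom with quality weights, the replicate block, all 20 libraries in 1 fit, leaving out libraries with foreign transcripts (for the tissue comparisons and the interaction, added after seeing the data), and leaving out each library.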

Additional observations from a re-analysis of the deposited data

Results flagged for a closer look

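Of 88 groups of 5 libraries looked at (60 of levels of the members given in every library and 28 of class scores), 3 had a highest library that stood apart from the other 4 by more than 0.71 of the group's range, and about 4.4 such groups are expected by chance (1 in 20). Isg20 stood at 8.60 CPM in WT liver 2, where the next library had 5.52 and the lowest 4.71 CPM. Irf7 stood at 45.7 CPM in KO fat 4, with the next at 26.7 and the lowest at 22.7 CPM. Gbp2 stood at 38.2 CPM in WT liver 1, with the next at 21.2 and the lowest at 17.2 CPM.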

How the results depend on the processing

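Of the counts, the medians and the Prkce check, 1074 of the values under alternatives stayed within the set limits and 50 moved. The limit for a median was the pooled SD of the library scores of its class. For all members in fat these SDs were 0.268 (WT) and 0.37 (KO), beside a median of -0.31. A difference that vanished could thus stay within its limit, so this tally does not measure stability. In fat, DESeq2 called 16 genes and 1 member, and limma-voom left 5 members at an unadjusted p under 0.05. Leaving out each fat library gave 4 to 15 such members. In liver, the 1 gene called became 15 without a filter, 138 with DESeq2, 3 with limma-voom, 2 with all 20 libraries in 1 fit, 3 without libraries with foreign transcripts and 0 to 3 without 1 library. The 1 liver member called without a filter and with DESeq2 was Cxcl11. Members at an unadjusted p under 0.05 in liver became 4 with all libraries in 1 fit, 4 without foreign transcripts and 2 to 10 without 1 library, and members lower 10 to 23. Leaving out libraries with foreign transcripts, chosen for the interaction and the tissue comparisons after seeing the data, gave 1 interaction member at an unadjusted p under 0.05, a chemokine median of 0.31 and a reversed Ifi27l2a (0.07). DESeq2 called 2 genes for the interaction, and its members at an unadjusted p under 0.05 ran from 2 to 11 without 1 library. Correlations of same-numbered KO and WT libraries ran from -0.232 to 0.342 in fat and from -0.164 to 0.189 in liver. The best match was the same number for 1 and 3 in fat and 2 in liver, and another number for the rest. Between fat and liver they ran from 0.003 to 0.158 in WT and from -0.018 to 0.047 in KO. These weak and mixed values do not decide whether libraries of 1 number share an origin. The replicate block paired same-numbered KO and WT libraries in each tissue. For the interaction and the tissue comparisons it paired same-numbered fat and liver libraries of a genotype. With it, 3 genes were called in liver, and 3 liver members (7.69%) had an unadjusted p under 0.05, against 13.1% of all genes. In the interaction 8 members (20.5%) had such a p, against 4.16% of all genes, and Oas1a reversed (-0.07). Upper quartile scaling moved the tissue medians in WT to 0.00 (members), -0.51 (sensors) and -0.47 (transcription factors), and in KO to -0.84 and -0.75. Under it 32 of 39 members kept their direction in WT and 34 in KO. Among the 15 members given in every library it reversed Psmb9 (0.22), Gbp7 (0.18) and Psmb8 (0.08) in WT and Gbp6 (0.01) in KO. Limma-voom reversed Iigp1 (-0.09) and Gbp2 (0.10) in liver. Without 1 library the tissue median ran from -0.85 to -0.10 for GTPases in WT and from -1.26 to -0.88 for transcription factors in KO. Single genes that reversed without 1 library were Gbp7 in fat (-0.31 to 0.04), Igtp (-0.28 to 0.08), Irgm1 (-0.16 to 0.05), Psmb9 (-0.24 to 0.13), Iigp1 (-0.11 to 0.18) and Gbp2 (-0.13 to 0.23) in liver, Isg20 (-0.04 to 0.24), Ifi27l2a (-0.22 to 0.10), Cxcl11 (-0.58 to 0.28) and Oas1a (-0.24 to 0.25) for the interaction, and Psmb9 (-0.21 to 0.14) and Gbp7 (-0.31 to 0.05) between WT tissues. The cause was not tested. Cxcl11 rested on 3 to 41 counts in WT fat and 9 to 32 in KO fat, which limits its estimate.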
